A study of Homo sapiens with 108 samples.

Results

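The genes described here encode the nuclear subunits of the mitochondrial respiratory chain, with ATP synthase and cytochrome c, in human melanoma cell lines irradiated with carbon ions or X-rays. A probe was taken as a member when its annotation gave a single gene symbol of the NDUFA, NDUFB, NDUFC, NDUFS, NDUFV, SDH, UQCR, COX4 to COX8 or ATP5 series, or CYCS or CYC1, and when at most 10% of its values were missing. This gave 69 genes of the 18278 with a single-symbol probe, or 86 member probes among the 54359 of the array. Of these, 83 probes for 66 genes were tested: 35 for complex I, 2 for complex II, 7 for complex III, 1 for cytochrome c, 17 for complex IV and 21 for ATP synthase.

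The 6 lines were MeWo, Colo679, C32TG, 92-1 and the pair HMV-I and HMV-II. Each was studied in a carbon-ion set and in an X-ray set, and each set held unirradiated cells (0Gy) and cells taken 1 h and 3 h after 2 Gy, with 3 single-colour arrays per group and 108 arrays in 36 groups. All lines are established melanoma lines with no engineered allele in the labels, and no group carried a treatment other than irradiation. Nothing in the labels ties the 3 arrays of a group to separate cultures, so their spread may be technical. For this reason a comparison over lines used 1 value per line (n = 6).

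The respiratory chain passes electrons from NADH (complex I) and from succinate (complex II) through complex III and the mobile carrier cytochrome c to oxygen at complex IV. The proton gradient that complexes I, III and IV build across the inner mitochondrial membrane drives ATP synthase, also called complex V. Most subunits are encoded in the nucleus and imported, and the remaining core subunits are encoded by mitochondrial DNA. Cytochrome c is also known for its release into the cytosol during apoptosis, and melanoma lines are known to differ in how much they depend on respiration, with the coactivator PPARGC1A (PGC-1α) marking lines of high oxidative capacity.

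The choice of members did not use their promoters, and those printed here belong to genes on which the results turn: CYCS, ATP5IF1 and ATP5F1A had lower signal after irradiation, and COX6B1 and NDUFA7 had higher signal. RefSeq promoters (GRCh38.p14) from 250 bases before to 50 bases after the annotated start were found for 55 of the 69 genes. Each is written 5′ to 3′ along the gene, and capitals mark a match to a searched motif.
CYCS (chr7:25125211-25125510, minus strand): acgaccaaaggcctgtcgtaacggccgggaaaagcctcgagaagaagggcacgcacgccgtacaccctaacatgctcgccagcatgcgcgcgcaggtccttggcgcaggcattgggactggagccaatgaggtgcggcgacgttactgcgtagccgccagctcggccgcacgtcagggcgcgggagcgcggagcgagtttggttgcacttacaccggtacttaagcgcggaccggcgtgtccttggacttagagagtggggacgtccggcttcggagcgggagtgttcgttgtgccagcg
ATP5IF1 (chr1:28235874-28236173, plus strand): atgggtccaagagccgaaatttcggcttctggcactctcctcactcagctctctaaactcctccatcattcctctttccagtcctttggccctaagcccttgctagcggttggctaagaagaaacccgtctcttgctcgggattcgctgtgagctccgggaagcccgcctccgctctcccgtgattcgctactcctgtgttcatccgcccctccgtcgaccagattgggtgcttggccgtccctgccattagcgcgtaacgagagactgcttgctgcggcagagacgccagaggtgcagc
ATP5F1A (chr18:46104178-46104477, minus strand): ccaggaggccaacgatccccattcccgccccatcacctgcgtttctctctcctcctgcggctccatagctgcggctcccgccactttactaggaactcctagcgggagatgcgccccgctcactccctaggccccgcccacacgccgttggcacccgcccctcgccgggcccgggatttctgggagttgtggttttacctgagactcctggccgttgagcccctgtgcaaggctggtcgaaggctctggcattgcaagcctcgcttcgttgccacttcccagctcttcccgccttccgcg
COX6B1 (chr19:35648073-35648372, plus strand): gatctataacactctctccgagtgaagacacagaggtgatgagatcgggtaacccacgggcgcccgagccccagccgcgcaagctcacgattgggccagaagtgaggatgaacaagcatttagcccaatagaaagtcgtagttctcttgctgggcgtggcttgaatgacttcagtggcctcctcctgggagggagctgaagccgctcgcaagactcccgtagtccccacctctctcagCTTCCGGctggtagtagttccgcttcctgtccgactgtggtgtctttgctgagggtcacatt
NDUFA7 (chr19:8321326-8321625, minus strand): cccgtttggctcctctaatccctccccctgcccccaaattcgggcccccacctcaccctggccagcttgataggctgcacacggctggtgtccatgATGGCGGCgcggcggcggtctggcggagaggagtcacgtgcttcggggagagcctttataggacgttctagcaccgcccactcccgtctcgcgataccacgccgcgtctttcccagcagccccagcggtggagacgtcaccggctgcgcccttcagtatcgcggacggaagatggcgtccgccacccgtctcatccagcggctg
The searched letters were GCGCATGCG for NRF1, CCGGAAG for ETS factors such as GABP, ATGGCGGC for YY1, TCAAGGTCA for oestrogen-related receptors and TGACGTCA for CREB, each on both strands. The NRF1 letters were in 7 of the 55 member promoters (12.7%, against 2.1% of all 27305 promoters), and the ETS letters in 15 (27.3% against 10.7%). YY1 letters were in 6 (10.9% against 3.21%), CREB letters in 4 (7.27% against 1.98%) and receptor letters in 1 (1.82% against 0.359%). The promoters of CYCS, ATP5IF1 and ATP5F1A held none of the 5 motifs as spelled here. Among the genes that rose, COX6B1 held 1 ETS match and NDUFA7 held 1 YY1 match, while the promoters of NDUFA6, NDUFB3 and NDUFV3, not printed, held none. The promoter of COX7B2, which fell, held none either.

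Values are log2 of the deposited intensity after quantile normalization, and levels are to be read across lines and times for the same probe, since probes bind with different strength. Between 1000 and 8034 probes per array had no value, and replicate arrays correlated at 0.961 to 0.999 over the members, with a median SD of 0.093 between the 3 arrays of a group. Of 12 melanocyte lineage markers with a probe, 10 to 12 were above the array median in 92-1, C32TG, Colo679, HMV-II and MeWo, but 5 were in HMV-I, where MLANA, TYR and TYRP1 were below it on all 6 unirradiated arrays. The summed linear level of these markers was 48.6 in HMV-I and 620.03 to 2218.56 in the other lines. Fibroblast markers summed to 9.12 (92-1) to 67.4 (MeWo) and leukocyte markers to 4.89 (C32TG) to 13.18 (MeWo). Keratinocyte markers summed to 13.31 in HMV-I and to 3.76 to 4.91 in the other lines. Of that list, EPCAM had a median deposited log2 of 3.48 in unirradiated HMV-I, against -0.057 to 0.679 in the other lines. The 0Gy arrays of the MeWo carbon-ion and X-ray sets differed beyond 2-fold for 16 of 83 members (19.3%) and for 7.34% of all probes, while each other line had 0 or 1 such member.

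Without irradiation, the lines differed in most of these genes. By limma's F test over the 6 lines, on the means of the unirradiated carbon-ion and X-ray arrays of each line, 54 of 83 members (65.1%) differed at an adjusted p under 0.05, against 60.1% of all 32060 probes tested. The range between the highest and the lowest line had a median of 0.952 log2 over the members and of 0.923 over all probes, and 39 members (47%) and 45.6% of all probes spanned more than 2-fold. The members as a group therefore varied between lines about as much as other genes. By complex, 23 of 35 probes of complex I were called, 2 of 2 of complex II, 5 of 7 of complex III, 12 of 17 of complex IV and 11 of 21 of ATP synthase, as well as cytochrome c.

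**Figure D1:**
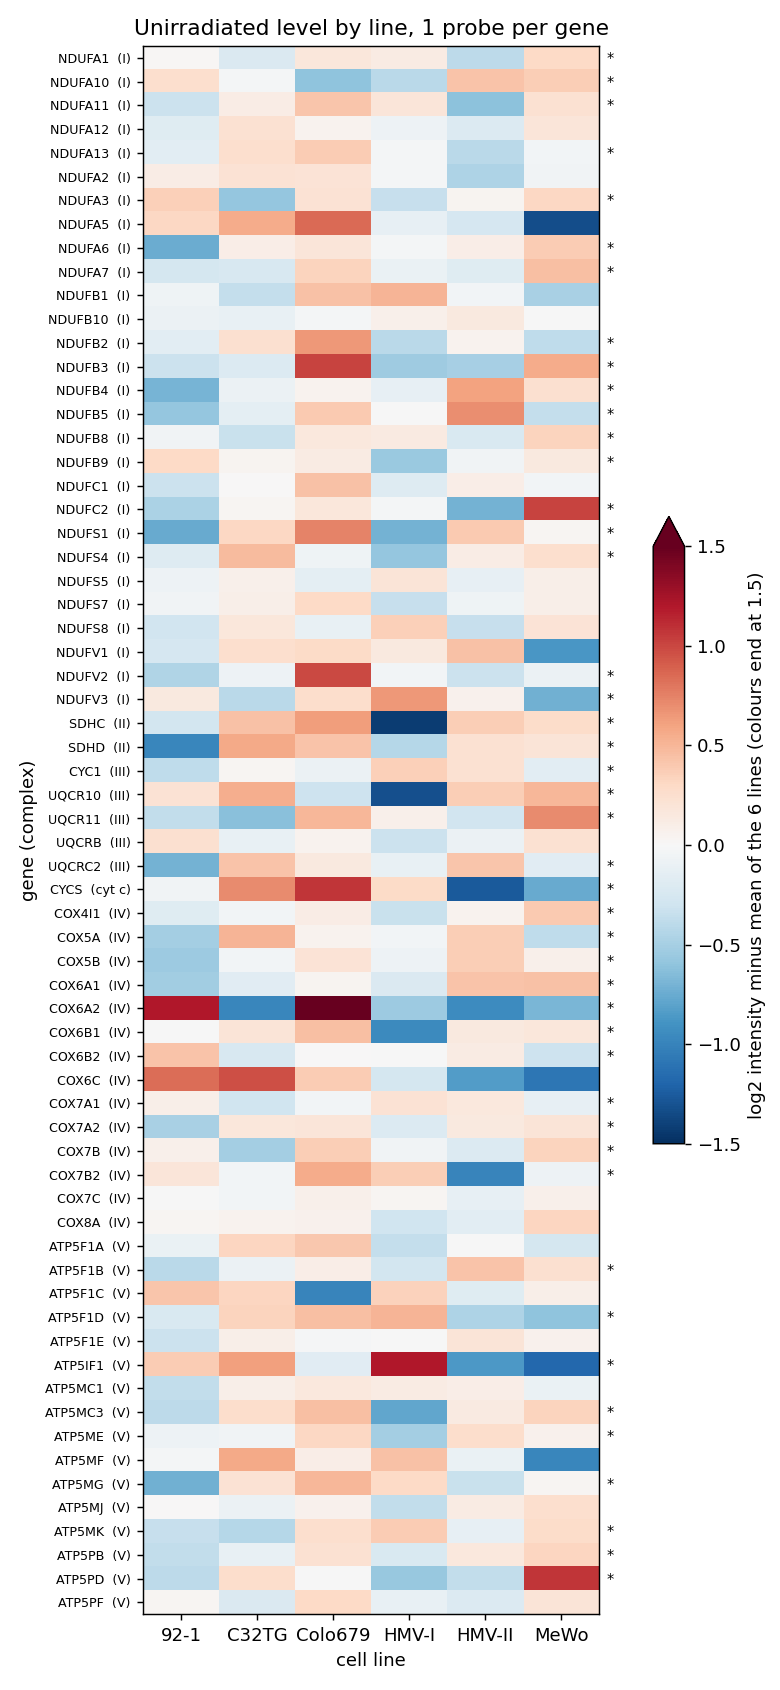
Levels of 66 member genes (rows, by complex) in 6 unirradiated melanoma lines (columns), as log2 level minus the mean of the 6 lines for that gene; colours end at 1.5 in each direction, and an asterisk marks genes whose lines differed at an adjusted p under 0.05 (limma F test). COX6A2 stands out in 92-1 and Colo679, and SDHC and UQCR10 are at their lowest in HMV-I.

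The widest range belonged to COX6A2, the heart and skeletal muscle isoform of complex IV subunit VIa. Its log2 level on the 6 unirradiated arrays had a lowest value, median and highest value of 1.14, 1.62 and 2.24 in Colo679 and of 0.70, 0.93 and 1.10 in 92-1. In HMV-I its 5 arrays with a value lay between -1.13 and -0.67, in MeWo between -1.18 and -0.74, in HMV-II between -1.56 and -1.08 and in C32TG between -1.50 and -1.06. Colo679 and 92-1 thus did not overlap each other or any of the other lines, while the other 4 lines overlapped their neighbours. Colo679 exceeded the mean of the other 5 lines by 2.34 log2 (limma, adjusted p = 2.36e-05) and 92-1 by 1.44 (adjusted p = 0.000364). The line means spanned 2.92 log2 (adjusted p = 1.63e-05). The mean deposited log2 of this probe was -0.182, above the level cut of -0.407 only through Colo679 and 92-1. In the other 4 lines its values were under that cut, as dim as isoforms not tested. The size of the range is therefore set by the floor at its lower end. With no filter on level it was 2.87 (limma's F test, adjusted p = 8.28e-06).

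The other tissue-restricted isoforms of complex IV varied less between lines. COX6B2, the testis isoform of subunit VIb, had a line mean of 1.75 in 92-1 and of 1.01 to 1.44 in the other lines (range 0.743, adjusted p = 0.0193 by limma's F test). COX7A1, the heart and muscle isoform of subunit VIIa, lay between -0.545 and -0.034 in all lines (range 0.511, adjusted p = 0.0293, lost with median centring). The probes of COX4I2, the isoform linked to lung and hypoxia, and of the testis isoform COX8C were below the level needed for testing, with medians of the deposited log2 value on the unirradiated arrays of each line between -0.974 and -0.703 and between -1.10 and -0.668. Of the common isoforms, COX6A1 ranged from 7.37 in 92-1 to 8.34 in MeWo (range 0.968, adjusted p = 0.0068), COX6B1 from 6.14 in HMV-I to 7.55 in Colo679 (range 1.41, adjusted p = 0.0133), COX7A2 from 8.09 in 92-1 to 8.77 in MeWo (range 0.675, adjusted p = 0.0416) and COX4I1 from 7.33 in HMV-I to 8.06 in MeWo (range 0.726, adjusted p = 0.0298). The COX7A2 call was lost without 92-1 (range 0.388, limma's F test, adjusted p = 0.388), C32TG, Colo679 or HMV-I. It was also lost when only probes without missing values were used. A further, dimmer COX7A2 probe was highest in C32TG and lowest in HMV-I. COX8A, at 7.35 in HMV-I to 7.97 in MeWo, did not pass (adjusted p = 0.0707).

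COX7A2L, known as a factor that helps join complexes III and IV into supercomplexes, was a member that could not be tested, because 1 group of 92-1 had no value at all. Its deposited log2 value was -1.82 to -1.03 on the 10 of 18 arrays of 92-1 that gave one. On all 18 arrays of each other line it had a value: 3.60 to 4.14 in C32TG, 5.32 to 5.97 in Colo679, 4.88 to 5.48 in HMV-I and 4.95 to 5.66 in HMV-II. In MeWo it was 1.57 to 3.63 on the 9 carbon-ion arrays and 5.44 to 5.82 on the 9 X-ray arrays. The 92-1 arrays did not overlap those of any other line. A further probe of COX7A2L had too many missing values to be a member and had medians of -1.67 to -1.32 on the unirradiated arrays of the lines, under the level needed for testing, so it says nothing on the gap.

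Both membrane anchors of succinate dehydrogenase (complex II), the enzyme shared by the chain and the citric acid cycle, differed between lines. SDHC was lowest in HMV-I, where its 6 unirradiated arrays read 3.14 to 4.20 with a median of 3.79, and the lowest array of any other line read 4.50 (92-1). HMV-I was 1.71 log2 below the mean of the other lines (limma, adjusted p = 0.000264). HMV-I is also the line with the low melanocyte marker sum given above, whose part in its differences was not tested. The range over lines was 2.05 log2 (adjusted p = 0.00152), and without HMV-I it was 0.904 (adjusted p = 0.12). SDHD was lowest in 92-1, at 4.86 to 5.19, followed by HMV-I at 5.50 to 5.68. No array of these lines overlapped those of another line, and the other 4 lines lay between 5.71 and 6.80. SDHD in 92-1 was 1.18 log2 below the other lines (adjusted p = 0.00032), and in C32TG it was 0.685 above them (adjusted p = 0.00728). The catalytic subunit SDHA had a probe with several symbols, and SDHB had no probe with a single symbol, so neither is described here; the same holds for the complex IV subunit NDUFA4 and its relative NDUFA4L2.

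In complex III, UQCR10, a small supernumerary subunit, was lowest in HMV-I. Its 6 arrays there read 4.80 to 5.13, those of Colo679 5.77 to 6.09, and those of the other 4 lines 6.45 to 6.98. HMV-I was therefore separate from every other line and Colo679 next to it. The difference of HMV-I from the other lines was -1.58 log2 (limma, adjusted p = 3.28e-06), and the range over lines was 1.86 (adjusted p = 1.86e-05). The core subunit UQCRC2 was lowest in 92-1 at 6.47 and highest in C32TG at 7.61 (range 1.14, adjusted p = 0.000811). CYC1, the cytochrome c1 subunit, ranged from 6.15 in 92-1 to 6.89 in HMV-I (range 0.737, adjusted p = 0.0173). UQCRC1 had probes with several symbols only.

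In complex I, NDUFC2, an accessory subunit of the membrane arm, was highest in MeWo. Its arrays there read 7.58 to 8.09, above the highest array of any other line (7.11, in Colo679), and the range over lines was 1.73 log2 (adjusted p = 0.000106). NDUFS1, the largest iron-sulfur subunit of the NADH-oxidising arm, was low in 92-1 (5.48) and HMV-I (5.54) and highest in Colo679 (6.98; range 1.50, adjusted p = 0.000433). NDUFB3, another membrane-arm subunit, was highest in Colo679 at 2.25 and lowest in HMV-I at 0.704 (range 1.55, adjusted p = 0.00121). At the other extreme, NDUFB8 spanned 0.665 log2 with a call (adjusted p = 0.0222), and NDUFB10 and NDUFS5 spanned 0.261 and 0.345 without one (adjusted p = 0.538 and 0.274).

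In ATP synthase, the stalk subunit ATP5PD was highest in MeWo, where its arrays read 7.90 to 8.44 against a highest value of 7.49 elsewhere (C32TG); the range was 1.64 log2 (adjusted p = 0.000269). A further ATP5PD probe was also highest in MeWo, with a line mean of 1.60 against 0.524 to 1.07 in the other lines (adjusted p = 0.012). The catalytic subunit ATP5F1B ranged from 8.25 in 92-1 to 9.08 in HMV-II (range 0.825, adjusted p = 0.00985), while its partner ATP5F1A spanned 0.764 without passing (adjusted p = 0.46). ATP5IF1, the inhibitor that binds ATP synthase when it runs in reverse, was highest in HMV-I at 5.32 and lowest in MeWo at 2.94 (range 2.38, adjusted p = 0.0411). CYCS was highest in Colo679 at 4.36 and lowest in HMV-II at 2.02 (range 2.34, adjusted p = 0.0491). Both calls were lost with the values as deposited (adjusted p = 0.0683 for ATP5IF1 and 0.0541 for CYCS), with no beam term (0.0913 and 0.0706), without C32TG (0.0592 and 0.076), without HMV-I (0.132 and 0.0533) and without HMV-II (0.085 and 0.198). CYCS was also lost without Colo679 (adjusted p = 0.101) and without the arrays numbered 3 (0.0506). Both calls strengthened without MeWo (adjusted p = 0.000414 and 2.42e-05). COX7B2, a testis-associated relative of COX7B, had a range of 1.55 with a similar margin (adjusted p = 0.047). It passed in 5 of 14 alternatives, and without HMV-II its range was 0.628 (adjusted p = 0.563).

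**Figure D2:**
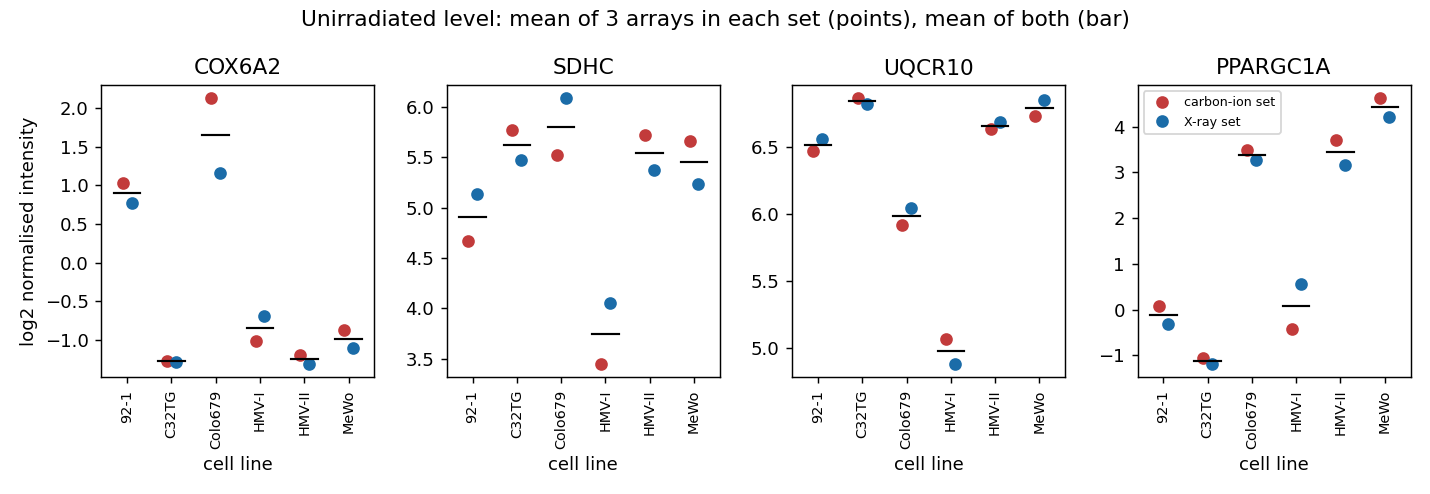
Log2 level without irradiation in the 6 lines for COX6A2, SDHC, UQCR10 and PPARGC1A; points are the means of the 3 arrays of the carbon-ion and X-ray sets, and the bar is the mean of both. HMV-I is lowest for SDHC (mean 3.75) and UQCR10 (4.98), Colo679 is highest for COX6A2 (1.65), and PPARGC1A spans from -1.12 in C32TG to 4.42 in MeWo.

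Each line was then set against the mean of the other 5. In Colo679, 18 members were higher and 3 lower (21.7% and 3.61% of 83), against 9.71% and 10.6% of all probes, and the median difference of the members was 0.22 log2. In 92-1, 5 were higher and 20 lower (6.02% and 24.1%, against 14.6% and 15.1% of all probes; median -0.148), and in HMV-I 5 were higher and 22 lower (6.02% and 26.5%, against 16.3% and 16.8%; median -0.104). The subunit genes therefore leaned to higher levels in Colo679 and to lower levels in 92-1 and HMV-I. MeWo had 17 higher and 10 lower (20.5% and 12%, against 14.9% and 14.5%), HMV-II 10 and 13 (12% and 15.7%, against 13.2% and 12.6%), and C32TG 9 and 11 (10.8% and 13.3%, against 14.4% and 16.8%). The scaling mattered for some lines: higher and lower members were 26 and 5 in MeWo with median centring and 26 and 7 with the values as deposited, 16 and 4 in C32TG and 1 and 39 in HMV-I with the values as deposited, and 5 and 10 (median centring) or 3 and 8 (as deposited) in HMV-II. Leaving out MeWo moved the counts further: Colo679 then had 35 higher and 2 lower, C32TG 22 higher and 14 lower, 92-1 had 12 and 25, HMV-I 13 and 26, and HMV-II 17 and 18. In C32TG, lower members slightly outnumbered higher ones with MeWo, as was the case over all probes, and higher ones outnumbered lower ones without it. HMV-II had 10 and 4 without Colo679 and 4 and 12 without 92-1, C32TG had 5 and 8 without 92-1, and HMV-I had 6 and 14 without Colo679. Shares over all probes are not given for the counts under other scalings or without a line. Members called between lines also rose from 54 to 71 without MeWo. Whether the moves in these counts are particular to the members was therefore not tested.

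The named genes of each line came from several complexes. 92-1 was lower in NDUFS1 (-0.913, adjusted p = 0.00136) and NDUFA6 (-0.897, adjusted p = 0.00451) and higher in COX6B2 (0.516, adjusted p = 0.00966) and NDUFA3 (0.428, adjusted p = 0.0353, lost with either other scaling). C32TG was higher in UQCR10 (0.657, adjusted p = 0.00159) and in COX5A, a peripheral complex IV subunit (0.613, adjusted p = 0.00379). It was lower in COX6A2 (-1.17, adjusted p = 0.0013), UQCR11 (-0.748, adjusted p = 0.008) and NDUFA3 (-0.691, adjusted p = 0.00347), the latter pair lost with the values as deposited. Its unirradiated COX6A2 values were all under the level cut of -0.407, and Colo679 and 92-1 raised the mean of the other lines. Colo679 was higher in NDUFB3 (1.21, adjusted p = 0.0011) and NDUFV2, an iron-sulfur subunit (1.18, adjusted p = 0.000312), for which both further probes also passed. It was lower in NDUFA10 (-0.73, adjusted p = 0.0122) and UQCR10 (-0.373, adjusted p = 0.0383, lost with either other scaling).

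HMV-I was lower in COX6B1 (-1.15, adjusted p = 0.00199) besides SDHC and UQCR10. It was higher in ATP5IF1 (1.45, adjusted p = 0.041, lost with either other scaling), NDUFV3, an accessory subunit near the NADH site (0.78, adjusted p = 0.0045), and ATP5F1D, the delta subunit of the F1 head (0.614, adjusted p = 0.00798), the latter pair lost with the values as deposited. HMV-II was higher in NDUFB4 (0.731, adjusted p = 0.00105), NDUFB5 (0.841, adjusted p = 0.0286) and ATP5F1B (0.508, adjusted p = 0.0147). It was lower in COX6A2 (-1.14, adjusted p = 0.00193), COX7B2 (-1.19, adjusted p = 0.0145) and CYCS (-1.51, adjusted p = 0.0436). Of these, NDUFB5 and CYCS were lost with the values as deposited. The unirradiated COX6A2 values of HMV-II were likewise all under the level cut. MeWo was higher in ATP5PD (1.28, adjusted p = 0.000119), NDUFC2 (1.22, adjusted p = 6.87e-05) and UQCR11 (0.843, adjusted p = 0.0046). It was lower in NDUFA5 (-1.59, adjusted p = 0.0201), ATP5IF1 (-1.41, adjusted p = 0.0495) and NDUFV1 (-1.05, adjusted p = 0.041). ATP5IF1 was lost with either other scaling and NDUFV1 with the values as deposited. The unirradiated MeWo sets of these 3 genes differed by 2.42, 3.12 and 1.87 log2, so each mean rests on sets that disagree.

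At 3 h, 67 of 83 members (80.7%) had the same highest line as without irradiation and 65 (78.3%) the same lowest line, and both held for 52 (62.7%). Over all probes these shares were 77.9%, 75.1% and 59.3%, close to those of the members. The evenest member was COX7C, a small complex IV subunit, whose line means lay between 8.91 and 9.10 (range 0.191, adjusted p = 0.506). On most arrays, 6 member probes lay within 1 log2 of the brightest probe, where a further rise has little room on the scale. COX7C was among them on all 108 arrays and ATP5F1B on 76, so the narrow range of COX7C is to be read with this limit.

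After carbon ions a few members were called lower and several were called higher by small amounts. Some of these calls were lost under other settings, as given below for each gene. The falls were in CYCS, COX6C, COX7B2, a further probe of ATP5F1C and, at 3 h, ATP5F1A. At 1 h, 6 probes rose and 4 fell of 83, against 4.67% and 6.03% of all probes. At 3 h, 6 rose and 5 fell, against 6.43% and 6.98%. The counts are near those shares of all probes (in all, 12% of members against 10.7% at 1 h and 13.3% against 13.4% at 3 h). Over the members, the median change was 0.0452 log2 at 1 h and 0.0536 at 3 h, beside 0.0057 and 0.004 over all probes, and 56 and 50 of 83 mean changes were above 0.

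These counts moved with the scaling of the arrays. With median centring, 18 members rose and 4 fell at 1 h (26.5% against 16.3% of all probes), and 39 rose and 4 fell at 3 h (51.8% against 22.1%). The median change of the members at 3 h was then 0.213 log2, beside 0.06 over all probes. With the values as deposited, 9 rose and 4 fell at 1 h (15.7% against 11.9%), and 22 rose and 4 fell at 3 h (31.3% against 13.1%). Small rises of member probes were thus called or not by how the arrays were scaled, whereas 4 probes fell at each time under either other scaling. Leaving out single lines moved the counts as well. At 1 h, 3 members were called without Colo679, HMV-I or MeWo, 4 without 92-1 or HMV-II, and 10 without C32TG. At 3 h, 4 were called without Colo679, 5 without 92-1 or HMV-II, 6 without HMV-I, 7 without MeWo and 13 (5 rises and 8 falls) without C32TG. Without the arrays numbered 2, 2 were called at 1 h, and without those numbered 1 or 3, 6 and 7 at 3 h. Shares over all probes are not given for these left-out runs.

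CYCS, the somatic gene of cytochrome c, fell most at 1 h. In Colo679 the 3 unirradiated arrays of the carbon-ion set read 4.80, 4.39 and 3.88, the arrays at 1 h 3.61, 3.27 and 3.30, and those at 3 h 3.33, 2.72 and 2.33. In HMV-I they read 3.96, 3.31 and 3.32 before and 2.56, 2.63 and 2.07 at 3 h. In 92-1 they read 3.09, 3.10 and 3.51 before and 2.75, 2.58 and 2.00 at 3 h. In these 3 lines no array at 3 h reached the lowest unirradiated one. MeWo, with 1 array missing at 0Gy and 1 at 3 h, read 1.44 and 0.593 before and -0.13 and 0.125 at 3 h. HMV-II read 2.57, 1.85 and 1.30 before and 1.80, 1.17 and 1.39 at 3 h, so its groups overlapped. C32TG read 3.73, 3.97 and 3.50 before and 3.65, 3.76 and 3.90 at 3 h, and these overlapped too.

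The change of CYCS over the 6 lines was -0.566 ± 0.454 log2 at 1 h (SD, n = 6; limma, adjusted p = 0.0179) and -0.817 ± 0.558 at 3 h (adjusted p = 0.0104), with 5 of 6 lines lower at each time. Without MeWo, the change at 3 h was -0.773 (adjusted p = 0.0261). The call at 3 h held in every alternative run, with a highest adjusted p of 0.0375, while that at 1 h was lost without Colo679 (0.0594), HMV-I (0.058) or MeWo (0.053). After X-rays CYCS changed by -0.298 ± 0.296 at 1 h (adjusted p = 0.119) and by -0.534 ± 0.478 at 3 h (adjusted p = 0.0283), and all 6 lines were below their own unirradiated arrays. The call at 3 h after X-rays was lost without Colo679, HMV-II or MeWo and without the arrays numbered 1. CYCS has a single tested probe, drawn from a GenBank entry other than a RefSeq transcript, and the gene is known for many processed pseudogenes, so signal from related sequences cannot be told apart from that of CYCS here.

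**Figure D3:**
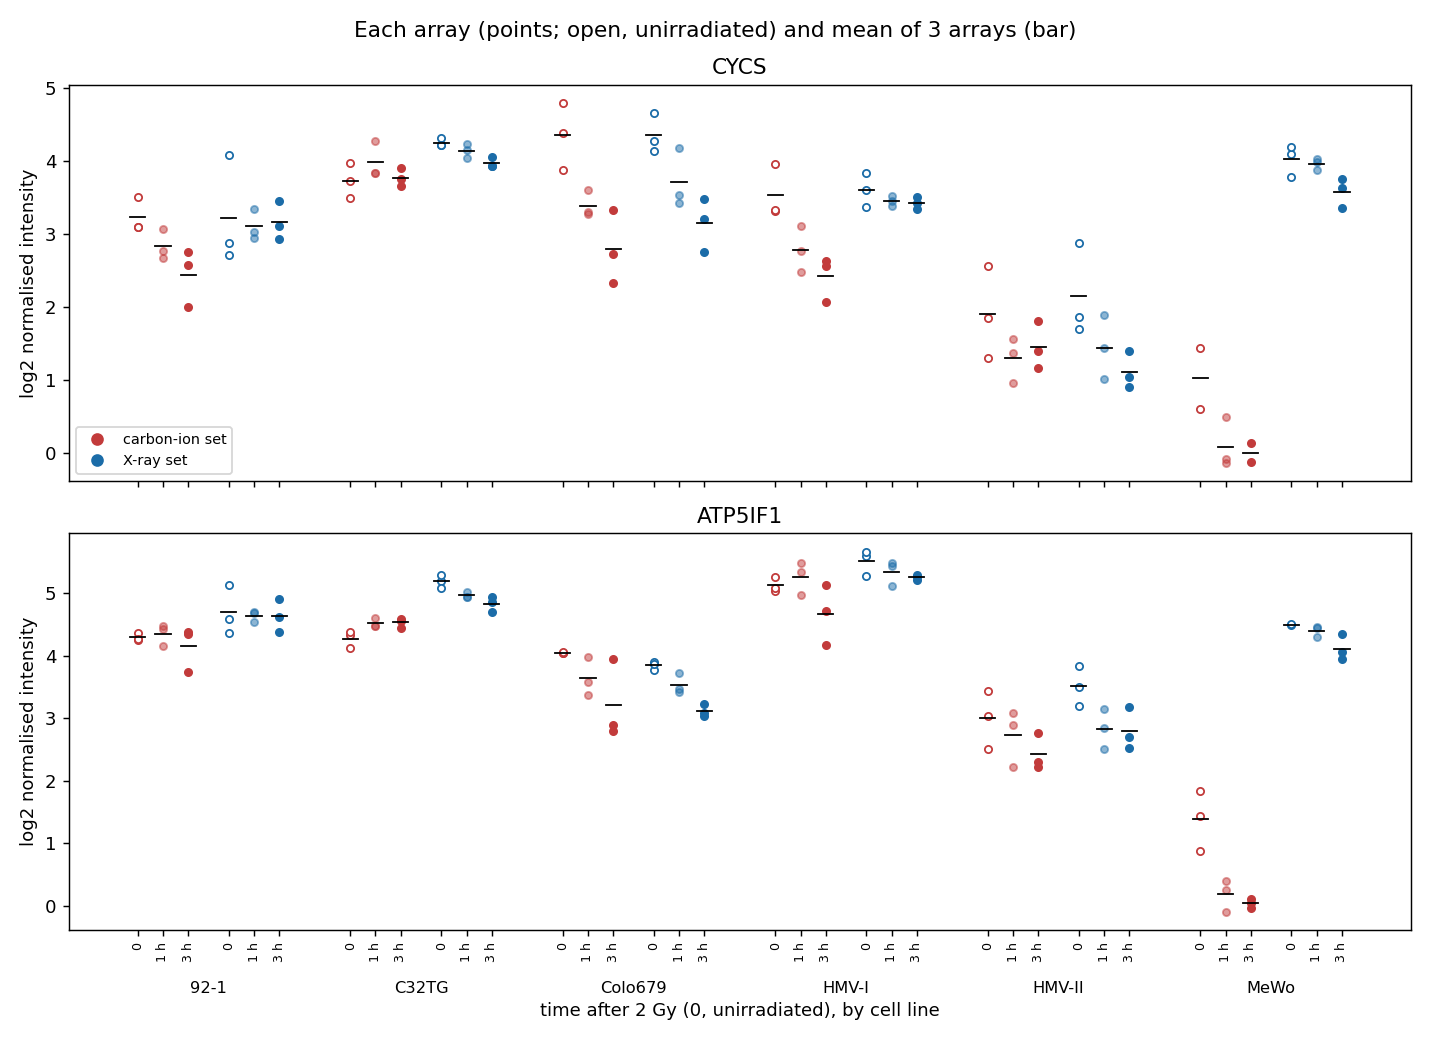
Log2 level of CYCS and ATP5IF1 on each array (points) and the mean of each group of 3 (bars) by line and time; red marks the carbon-ion set, blue the X-ray set, and open symbols unirradiated cells. In Colo679 the CYCS means are 4.36, 3.39 and 2.79 at 0 Gy, 1 h and 3 h after carbon ions, and in MeWo the carbon-ion set lies below the X-ray set before irradiation for both genes.

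COX6C, a small structural subunit of complex IV, fell in the same 5 lines. Its brightest probe read 5.47, 5.41 and 4.89 in Colo679 before carbon ions and 4.50, 3.93 and 3.74 at 3 h. In MeWo it read 2.59, 1.92 and 1.54 before and 0.704, 0.477 and 0.376 at 3 h, and in HMV-I 4.45, 4.29 and 4.17 before and 3.82, 3.68 and 3.15 at 3 h. The groups did not overlap in these 3 lines. In C32TG, with 5.41, 5.64 and 5.05 before and 5.41, 5.43 and 5.52 at 3 h, they did. The mean change was -0.532 ± 0.463 at 1 h (limma, adjusted p = 0.0256) and -0.832 ± 0.544 at 3 h (adjusted p = 0.00879; SD, n = 6). Without MeWo, the value at 3 h was -0.694 (adjusted p = 0.0184). After X-rays COX6C changed by -0.274 ± 0.32 at 1 h (adjusted p = 0.182) and -0.461 ± 0.415 at 3 h (adjusted p = 0.0313); this call was lost with median centring, without the arrays numbered 2 and without Colo679, HMV-I, HMV-II or MeWo. The call at 1 h after carbon ions was lost without the arrays numbered 2 (adjusted p = 0.0651) and without any 1 line other than C32TG (adjusted p = 0.0553 to 0.0761).

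A dimmer COX6C probe went the other way. It rose by 0.134 at 1 h and 0.272 ± 0.081 at 3 h after carbon ions (limma, adjusted p = 0.0499 and 0.00745) and by 0.221 at 3 h after X-rays (adjusted p = 0.0494). All 6 lines were higher at 3 h after carbon ions on this probe. The direction for COX6C therefore depends on the probe, and which transcripts either probe reads was not tested.

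COX7B2 changed by -0.402 ± 0.329 at 1 h after carbon ions (limma, adjusted p = 0.0239) and -0.416 ± 0.403 at 3 h (adjusted p = 0.0427). Its line values at 3 h were -0.774 in 92-1, 0.169 in C32TG, -0.913 in Colo679, -0.52 in HMV-I, -0.311 in HMV-II and -0.148 in MeWo. As for CYCS and COX6C, C32TG was the 1 line that did not go down. After X-rays COX7B2 changed by -0.387 ± 0.389 at 3 h, just short of the threshold (adjusted p = 0.052). The call at 1 h after carbon ions was lost without the arrays numbered 2 (adjusted p = 0.0639) and without any 1 line other than C32TG (adjusted p = 0.0613 to 0.0771). That at 3 h was lost without the arrays numbered 1 (adjusted p = 0.0973) and without 92-1, Colo679, HMV-I or HMV-II.

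ATP5F1A, the alpha subunit of the F1 head, fell at 3 h after carbon ions. In MeWo it read 5.26, 5.42 and 5.24 before and 4.52, 4.20 and 4.35 at 3 h, and in Colo679 6.82, 7.06 and 6.92 before and 6.38, 6.21 and 6.12 at 3 h. These groups did not overlap. In 92-1 it read 6.29, 6.05 and 6.36 before and 6.22, 6.12 and 6.18 at 3 h, which did. The change was -0.436 ± 0.344 over the lines (limma, adjusted p = 0.0216), with all 6 lines lower. It did not pass with median centring (-0.267, adjusted p = 0.132), with the values as deposited (-0.347, adjusted p = 0.0825), without Colo679 (adjusted p = 0.067) or without HMV-II (adjusted p = 0.0603). The beta subunit ATP5F1B, which pairs with it in equal number, changed by -0.01 ± 0.302 at 3 h after carbon ions (95% interval -0.215 to 0.195).

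ATP5IF1 fell at 3 h after X-rays in all 6 lines. In Colo679 the X-ray set read 3.90, 3.77 and 3.87 before and 3.04, 3.23 and 3.09 at 3 h, and in HMV-II 3.84, 3.51 and 3.20 before and 3.18, 2.52 and 2.70 at 3 h. In C32TG it read 5.20, 5.29 and 5.09 before and 4.69, 4.93 and 4.86 at 3 h. None of these groups overlapped. The change was -0.418 ± 0.261 (limma, adjusted p = 0.0104), and it passed in every alternative run, with a highest adjusted p of 0.0376. At 1 h after X-rays it was -0.256 ± 0.228 (adjusted p = 0.101). After carbon ions ATP5IF1 changed by -0.515 ± 0.554 at 3 h (adjusted p = 0.0528), with values from 0.257 in C32TG to -1.34 in MeWo. Here the mean after carbon ions was the larger, but so was its spread between lines.

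**Figure D4:**
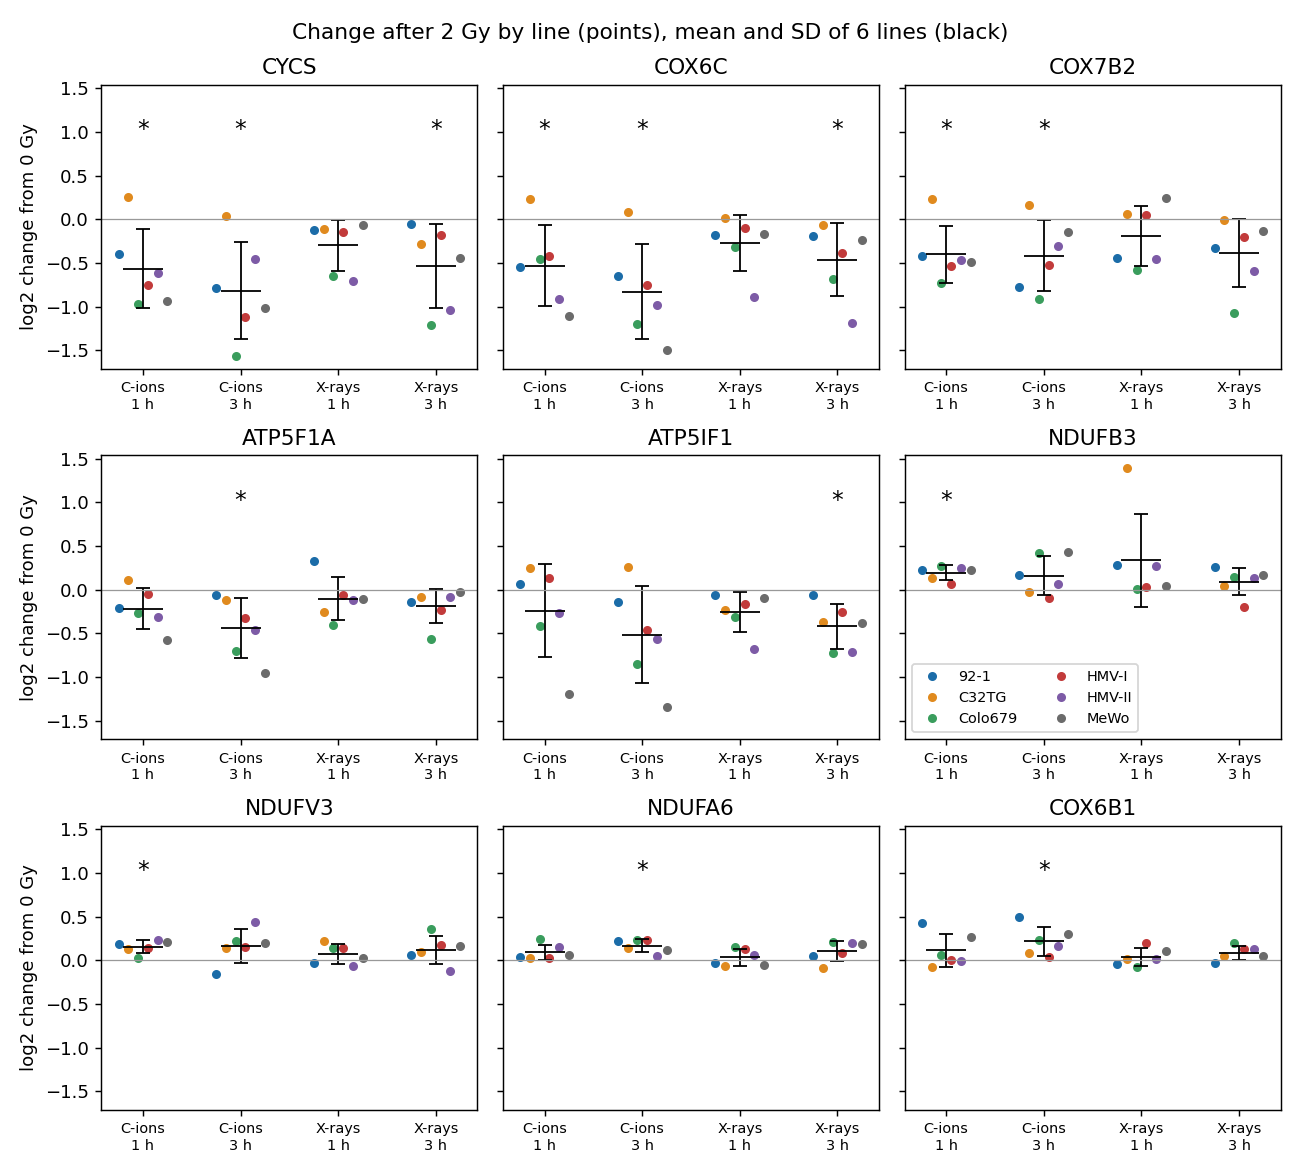
Change in log2 level against unirradiated cells of the same beam at 1 h and 3 h after carbon ions and X-rays for CYCS, COX6C, COX7B2, ATP5F1A, ATP5IF1, NDUFB3, NDUFV3, NDUFA6 and COX6B1; points are the 6 lines, black marks the mean ± SD, and an asterisk marks an adjusted p under 0.05 (limma). The falls of CYCS and COX6C reach -0.817 and -0.832 at 3 h after carbon ions, and the called rises run from 0.156 (NDUFV3) to 0.219 (COX6B1).

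The rises were smaller, with every line above 0. NDUFB3 rose by 0.198 ± 0.081 at 1 h after carbon ions (limma, adjusted p = 0.0149), NDUFV3 by 0.156 ± 0.076 (adjusted p = 0.0256) and NDUFA7, an accessory subunit of complex I, by 0.14 ± 0.089 (adjusted p = 0.0498). At 3 h, COX6B1, the complex IV subunit that faces the intermembrane space, rose by 0.219 ± 0.165 (adjusted p = 0.0397), and NDUFA6, an accessory subunit of complex I, by 0.167 ± 0.076 (adjusted p = 0.0375). Of these rises, COX6B1 had the widest spread between lines. It rose by 0.498 in 92-1 and by 0.043 in HMV-I, and its mean without 92-1 was 0.165 (adjusted p = 0.109). The calls at 3 h became firmer with median centring (0.432, adjusted p = 0.00582 for COX6B1, and 0.334, adjusted p = 0.00753 for NDUFA6). Both were lost with no filter on level (adjusted p = 0.052 and 0.0538) and without 92-1, Colo679 or HMV-II. Both were also lost without the arrays numbered 1 or 3, COX6B1 without MeWo and NDUFA6 without HMV-I. NDUFB3 was lost without Colo679, without the arrays numbered 1 or 2 and in both fits on all arrays (limma, highest adjusted p = 0.227). NDUFV3 was lost without 92-1, HMV-I, HMV-II or MeWo and without the arrays of any 1 number (highest 0.23). NDUFA7 was lost without any 1 of the 6 lines, without the arrays numbered 2 or 3 and with no filter on level.

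By complex, the calls at 1 h after carbon ions were 4 rises of complex I probes, 1 rise and 2 falls of complex IV, 1 rise and 1 fall of ATP synthase, and the fall of CYCS. At 3 h they were 2 rises of complex I, 1 of complex III, 2 rises and 2 falls of complex IV, 1 rise and 2 falls of ATP synthase, and the fall of CYCS. No probe of complex I was called lower over the lines at either time after carbon ions. Of its 35 mean changes, 24 were above 0 at 1 h and 21 at 3 h. The lowest were -0.283 and -0.375. The calls by complex are parts of the totals given above, which were near the shares of all probes. Complex II had no call: SDHC changed by 0.101 ± 0.127 at 3 h (limma, adjusted p = 0.224) and SDHD by 0.0555 ± 0.195 (adjusted p = 0.604). Among the core subunits, NDUFS1 changed by 0.109 ± 0.12 at 3 h after carbon ions (adjusted p = 0.185), NDUFV1 by -0.207 ± 0.225 (adjusted p = 0.0869), UQCRC2 by 0.0473 ± 0.224 (adjusted p = 0.695), CYC1 by 0.0775 ± 0.106 (adjusted p = 0.319) and COX4I1 by 0.0582 ± 0.118 (adjusted p = 0.478).

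**Figure D5:**
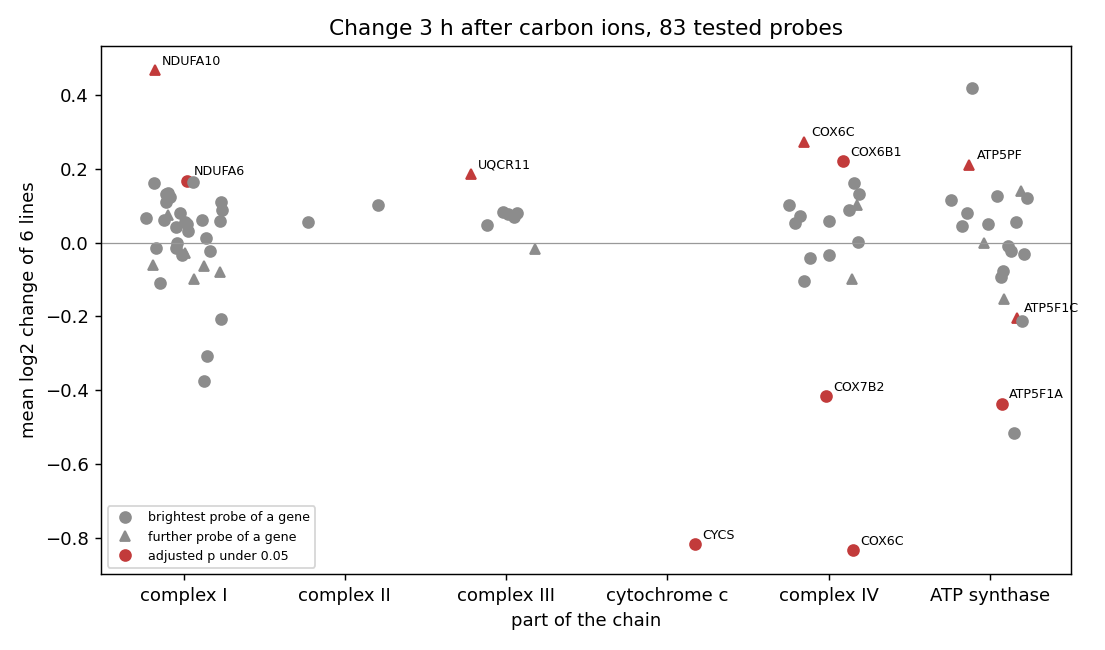
Mean change in log2 level over 6 lines at 3 h after carbon ions for the 83 tested member probes, by complex; circles are the brightest probe of each gene, triangles further probes of the same gene, and red marks an adjusted p under 0.05 (limma). Most probes lie close to 0, COX6C (-0.832) and CYCS (-0.817) are lowest, and a further probe of NDUFA10 (0.467) is highest.

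Most of the rises called at 3 h lay in further probes. For 66 genes the brightest probe was taken to speak for the gene, and 15 genes had further tested probes, 17 in all. At 3 h after carbon ions, 2 of 66 gene probes were called higher and 4 lower, while 4 of 17 further probes were called higher and 1 lower. Of all probes, 6.43% were called higher and 6.98% lower. The median change of the gene probes was 0.0549 log2, with 43 of 66 above 0, so small shifts upward were not confined to further probes. RefSeq transcript entries were the source of 63 of the 66 gene probes but of 4 of the 17 further probes, and the probes of 10 of the 15 genes had different signs. A further probe of NDUFA10, an accessory subunit of complex I, rose by 0.467 ± 0.191 at 3 h after carbon ions (limma, adjusted p = 0.00368) and by 0.268 at 3 h after X-rays (adjusted p = 0.00768). A further probe of ATP5PF, the coupling factor of the stalk, rose by 0.21 and 0.324 (adjusted p = 0.0407 and 0.0196), and 1 of UQCR11 rose by 0.185 after carbon ions (adjusted p = 0.0343). Falls among further probes were ATP5F1C, the gamma subunit, at 1 h and 3 h after carbon ions (-0.200 and -0.204, adjusted p = 0.0173 and just under the threshold), and NDUFV2 at 3 h after X-rays (-0.323, adjusted p = 0.0122).

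After X-rays no member was called at 1 h, against 0.368% of all probes higher and 0.786% lower. An unadjusted p under 0.05 (limma) was found for 14 of 83 members and 4412 of all 32060 probes. At 3 h, 3 rose and 4 fell, against 2.96% and 4.19%. With median centring 25 rose and 3 fell (33.7% against 11.4% of all probes), and with the values as deposited 5 and 5 (12% against 6.66%). The median change of the members was 0.027 at 1 h and 0.0533 at 3 h, beside 0.0052 and 0.0046 over all probes. The gene probes called at 3 h were the falls of CYCS, COX6C and ATP5IF1, and the 3 rises all came from further probes (NDUFA10, ATP5PF and COX6C).

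The carbon-ion and X-ray changes were not told apart for any member. By limma on the difference of the changes, 0% of all probes and 0 of 83 members passed at 1 h or at 3 h. An unadjusted p under 0.05 was found for 2 and 9 members, against 2421 and 1430 of all 32060 probes. At 1 h the smallest p-values belonged to SDHC (0.22, adjusted p = 0.632), COX6C (-0.258, adjusted p = 0.651) and CYCS (-0.268, adjusted p = 0.67). At 3 h they belonged to COX5A (-0.173), ATP5PD (-0.201) and COX6C (-0.371), each with an adjusted p of 1. The unirradiated sets of the beams had 0% of all probes called, and among the members NDUFA10 (0.345, adjusted p = 0.456), ATP5IF1 (-0.856, adjusted p = 0.496) and NDUFC1 (-0.445, adjusted p = 0.502) had the smallest p-values. Those of ATP5IF1 and NDUFC1 rest on MeWo, where the carbon-ion set was lower by -3.12 and -1.53.

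From 1 h to 3 h, averaged over the beams, 4 members fell and none rose, against 2% and 2.51% of all probes lower and higher. An unadjusted p under 0.05 (limma) was found for 17 of 83 members and 7160 of all 32060 probes. COX6C fell by 0.244 ± 0.179 (limma, adjusted p = 0.0356), CYCS by 0.243 ± 0.173 (adjusted p = 0.0334), ATP5IF1 by 0.22 ± 0.14 (adjusted p = 0.0265) and ATP5F1A by 0.154 ± 0.099 (adjusted p = 0.0437). These are the genes that also had lower signal against 0Gy, and the comparisons share the 3 h arrays. No member was called without HMV-I, without MeWo or without the arrays numbered 1 or 2.

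The genes that fell did so beside a wider pattern. CYCS group means, centred within each line over its 6 groups, were set against every other probe (a description chosen after these values were seen; all points share arrays). Over the 36 groups, 520 of 32059 other probes (1.62%) and 7 of 82 other members (8.54%) had r above 0.9. The members were COX6C (0.976), COX7B2 (0.963), ATP5IF1 (0.959), NDUFA5 (0.934), NDUFB1 (0.93), ATP5MF (0.91) and NDUFV1 (0.907). Without MeWo, over 30 groups, 10 probes and 0 members had r above 0.9, with COX7B2 at 0.9, COX6C at 0.885 and ATP5IF1 at 0.785. Of the 82, 22 had r above 0.5 and 29 r below -0.5, among them a further ATP5PD probe (-0.917) and NDUFS1 (-0.83). MeWo sets most of this likeness, and its unirradiated carbon-ion set was lower than its X-ray set by -3.01 for CYCS and -3.18 for COX6C.

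The probe most like CYCS that has a single gene name was RPL26, a ribosomal protein gene (r = 0.99). RPL26 changed by -0.551 ± 0.494 at 1 h (limma, adjusted p = 0.0286) and -0.626 ± 0.532 at 3 h after carbon ions (adjusted p = 0.024). After X-rays it changed by -0.474 ± 0.454 at 3 h (adjusted p = 0.0387). In C32TG it went up by 0.34 at 3 h after carbon ions, and in Colo679 it was lowest at -1.18. Without MeWo its r with CYCS was 0.956. RPL26 was chosen for its likeness to CYCS, so these changes restate that choice, and the part of whatever they share in the falls of CYCS, COX6C, COX7B2 and ATP5IF1 was not tested.

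No member's change was shown to differ between lines. The F test over the 12 changes per time called 0 members at 1 h and 0 at 3 h, against 0.0374% and 0.197% of all probes. COX6C had the smallest p among the members at 1 h (adjusted p = 0.211) and COX7B2 at 3 h (adjusted p = 0.135). The opposite sign of C32TG for CYCS, COX6C and COX7B2 after carbon ions is therefore a set of values and not a tested difference.

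Within single lines the arrays of a group are the only replicates, and p-values cover their spread alone. An F test over the 4 irradiated groups called 10 of 81 members in 92-1 (12.5% of all probes), 13 of 76 in C32TG (18.4%), 15 of 79 in Colo679 (22.6%), 11 of 77 in HMV-I (22.5%), 5 of 80 in HMV-II (10.5%) and 17 of 73 in MeWo (21.8%). These shares are near or below the background in every line. In Colo679, 12 members rose and 10 fell at 3 h after carbon ions, against 9.89% and 8.4% of all probes, and 10 and 7 at 3 h after X-rays, against 10% and 9.24%. In MeWo, 5 rose and 18 fell of 73 at 3 h after carbon ions, against 9.55% and 11.5%, and 3 rose and 0 fell after X-rays, against 2.1% and 1.55%. The MeWo falls after carbon ions included COX6C (-1.50), NDUFA5 (-1.38), ATP5F1A (-0.952) and NDUFB5 (-0.576). The difference between the beams in MeWo was not tested, and the unirradiated MeWo sets differed as given above.

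Other genes of mitochondrial energy metabolism were counted in the same way, against 10.7% and 13.4% of all probes called at 1 h and 3 h after carbon ions and 1.15% and 7.15% after X-rays. Of 40 tested assembly factors, 1 rose at 1 h and 4 rose and 1 fell at 3 h after carbon ions, and 0 and 2 rose after X-rays, shares near or below those of all probes. SCO2, a p53-regulated factor that carries copper to complex IV, rose by 0.136 at 1 h (limma, adjusted p = 0.0498) and 0.19 ± 0.064 at 3 h after carbon ions (adjusted p = 0.0207), with all 6 lines higher at 3 h. SDHAF4, an assembly factor of complex II, rose by 0.197 and 0.204 at 3 h after carbon ions and X-rays (adjusted p = 0.0295 and 0.0339). NDUFAF2 (0.161, adjusted p = 0.0409) and COX18 (0.195, adjusted p = 0.0444) rose after carbon ions and SDHAF3 (0.179, adjusted p = 0.0437) after X-rays. LYRM7, a chaperone for the iron-sulfur protein of complex III, fell by 0.396 ± 0.223 at 3 h after carbon ions in all 6 lines (adjusted p = 0.00933).

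None of 13 tested regulators of mitochondrial biogenesis passed at any of the 4 points, and TFB2M, a mitochondrial transcription factor, fell by 0.254 from 1 h to 3 h (limma, adjusted p = 0.0165). Of 15 citric acid cycle enzymes, IDH2 rose at 1 h (0.204, adjusted p = 0.024) and IDH3G at 3 h after carbon ions (0.194, adjusted p = 0.0496). Of 15 glycolysis genes, the glucose transporter SLC2A1 fell at 3 h after carbon ions (-0.203, adjusted p = 0.0329). Of 6 p53-linked metabolism genes, SCO2, TIGAR (0.481, adjusted p = 0.0247) and RRM2B (0.329, adjusted p = 0.0419) rose at 3 h after carbon ions. TIGAR, which lowers glycolytic flux, and RRM2B, which supplies deoxynucleotides, rose by 0.473 and 0.501 ± 0.174 after X-rays (adjusted p = 0.0311 and 0.00213).

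PPARGC1A, the coactivator that drives transcription of many respiratory chain genes, differed widely between lines without irradiation. Its line means were 4.42 in MeWo, 3.44 in HMV-II, 3.38 in Colo679, 0.072 in HMV-I, -0.121 in 92-1 and -1.12 in C32TG (range 5.54, limma F test, adjusted p = 1.34e-06). HMV-II and Colo679 were close neighbours in that order, and so were HMV-I and 92-1. The median difference of the members from the other lines ran from 0.22 in Colo679, 0.099 in MeWo and 0.042 in C32TG to -0.058 in HMV-II, -0.104 in HMV-I and -0.148 in 92-1. Both orders placed Colo679 and MeWo above HMV-I and 92-1, but no line held the same rank in both. C32TG was lowest for PPARGC1A with a member median above 0, and HMV-II was high for PPARGC1A with a median below 0. A link between the orders was not tested. At 3 h after carbon ions PPARGC1A changed by -0.155 (adjusted p = 0.136). MITF, the melanocyte factor known to act upstream of it, had line means of 6.88 to 7.71 in 5 lines and of 4.21 in HMV-I.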

How the data were processed

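Whole-genome single-colour CodeLink arrays were hybridised with biotin-labelled total RNA. The deposited values are intensity on a linear scale per probe, per the values themselves; the submitters' software, background correction and scaling: not given in the sources used here. Genes were named from the platform annotation given with the series, in which 23472 probes have 1 symbol, 905 several and 29982 none. All 92 probes matching the symbols were found in RefSeq by Entrez ID with symbols unchanged.

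The log2 of the deposited intensity was computed here. Probes with at most 10% missing values, a mean above the 40th percentile (log2 -0.407) and a value in every group were kept (32060) and quantile normalized. limma 3.58.1 in R 4.3.3 was fitted on all kept probes (lmFit, eBayes with trend), with p-values adjusted by Benjamini-Hochberg over all of them and a threshold of 0.05, two-sided. Changes were fitted as an intercept over 1 value per line (mean of 3 irradiated minus mean of 3 same-beam 0Gy arrays). Line differences used an F test on 12 line and beam means with a beam term, and single lines an F test on 18 arrays. A group mean used the arrays with a value. Named genes were, per comparison, up to 5 largest rises and falls among genes called (brightest probe per gene), or else the 3 smallest p; at baseline the 10 widest and 3 narrowest called ranges and, per line, up to 3 higher and lower; plus a fixed list of core subunits, isoforms and regulators, with up to 5 called genes of each other list. TFAM has a probe with several symbols and was not analysed here. COX7A2L, COX7C, NDUFB10, NDUFS5 and RPL26 were named after their values were seen. The members and lists were chosen with earlier results of these data known. The fits were tested on simulated data. Alternatives were median centring, the values as deposited, no filter on level, no missing values, each replicate number or line left out, no beam term, and fits on all arrays with and without a replicate block. Same-numbered arrays were not paired: 27 of 108 correlations of their deviations were above 0.1.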

Additional observations from a re-analysis of the deposited data

Results flagged for a closer look

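In 39 sets of 6 line values looked at, 5 had 1 line whose gap to its nearest neighbour exceeded Dixon's 95% critical value for 6 values, which chance gives in about 1 in 20 sets. COX7B2 at 1 h after carbon ions had C32TG at 0.234 log2, apart from the other lines, which were all below 0. COX6C at 1 h after X-rays had HMV-II at -0.888, the lowest line. CYCS from 1 h to 3 h had Colo679 at -0.581. Between the unirradiated carbon-ion and X-ray sets, ATP5IF1 had MeWo at -3.12 (-3.119), and NDUFC1 had MeWo at -1.53 (-1.529). The MeWo values come from the same pair of unirradiated sets.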

How the results depend on the processing

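None of the called values of named genes on their brightest probes changed direction under any setting run; further probes were not run singly. Of members called, median centring gave 22 at 1 h and 43 at 3 h after carbon ions, 28 at 3 h after X-rays and 152 summed over the single lines (71 as reported). The values as deposited gave 26 at 3 h after carbon ions and 1 for a change differing between lines at 3 h. Without a level filter, 7 were called at 3 h after carbon ions, and with complete probes only, 2 from 1 h to 3 h. Outside the main run, shares over all probes are given only for changes called after irradiation under either other scaling. Fits on all arrays treat arrays as replicates. Without a replicate block they gave 23 and 35 after carbon ions, 7 and 31 after X-rays (1 h and 3 h), 1 between beams at 3 h, 17 from 1 h to 3 h, 42 between unirradiated sets, 82 between lines, and 4 and 29 for changes differing between lines. With the replicate block they gave 24, 35, 11 and 32, then 1 and 2 between beams at 1 h and 3 h, 18, 33, 82, and 9 and 31; the replicate block within single lines gave 77. The numbers do not pair the arrays (correlations -0.351 to 0.385, median 0.0305). Leaving out 1 replicate number or 1 line gave 2 to 10 and 4 to 13 at 1 h and 3 h after carbon ions, 3 to 8 at 3 h after X-rays, 0 to 4 from 1 h to 3 h, 11 to 45 over single lines and 41 to 71 between lines, and 0 for each comparison with no call. The array number limits precision, and dim probes (a mean near -0.407) carry little signal.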

Other observations

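NDUFB6, a membrane-arm subunit of complex I, was the 1 gene left out by missing values alone. On the unirradiated arrays that gave a value, the median of its deposited log2 level was 5.28 in Colo679 (3 arrays), 5.10 in 92-1 (4), 4.92 in C32TG (3), 4.81 in HMV-II (6), 4.09 in HMV-I (3) and 3.40 in MeWo (5). Its arrays ran from 3.23 to 5.16 in MeWo and from 3.88 to 5.01 in HMV-I. Both overlapped those of 92-1, at 4.85 to 5.17, so the medians do not set these lines apart.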
